A study of Mus musculus with 4 samples.

Results

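Small leucine-rich proteoglycans (SLRPs) are secreted matrix proteins with a short core of leucine-rich repeats, most of which carry sugar chains. They sit on collagen fibrils, where they govern how thick and how evenly spaced the fibrils grow, and several of them also bind growth factors such as TGF-β. In the heart they are made mainly by fibroblasts, and decorin, lumican and biglycan are familiar parts of the scar and interstitial matrix of the overloaded ventricle. The family genes followed here were Bgn, Dcn, Fmod, Lum, Ogn, Aspn, Prelp, Omd, Kera and Podn. Their probes were found by matching the transcript named for each array probe to the RefSeq or Ensembl transcripts of these 10 genes. Of the 10 genes, 9 had a probe, and each of the 9 had exactly 1 of the 55681 non-control probes of the array. Prelp was not analysed here because no probe carried a transcript name of it. The probes of 8 genes were well above background on all 4 arrays, which is the scanner software's call that a spot is clearly brighter than its surroundings. The probe of Kera was below that level on every array.

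The arrays carried total RNA from hearts of male C57BL/6J mice after sham surgery or after transverse aortic constriction (TAC), in which a band around the aortic arch makes the heart pump against a raised pressure. Hearts were taken at 2 weeks, the time chosen in the study for the hypertrophic response, and at 8 weeks, chosen for the failing heart. Per the labels the mice were 10 weeks old in the 2-week sham and TAC groups and 16 weeks old in the 8-week sham and TAC groups, and the methods give a different age at surgery. No group carried a transgene or a deletion. There was 1 array for each of the 4 conditions, and each array held RNA mixed from several mice. The spread between mice was therefore not measured, and each difference below is that of 1 pool against another. The 2 times were not taken as replicates of each other, and no p-value is given. In such tissue RNA, fewer cells of a type and less RNA per cell cannot be told apart. As a check of the tissue, 7 of 7 cardiomyocyte markers were well above background on all arrays. Of the genes that mark pressure overload, Myh7, the fetal myosin heavy chain, reached 6.55-fold and 12.9-fold the sham level in the TAC pools of 2 and 8 weeks. Acta1, Nppa and Nppb were also more than 2-fold higher at both times, whereas Myh6, the adult myosin heavy chain, differed by -0.19 on the log2 scale at each time. All 4 arrays lay on the same slide and were scanned together.

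Signals are given as scaled signal, the background-corrected spot intensity divided by the 75th percentile of the same array, with the scanner software's own error for the spot. That error was near 10% for bright spots and larger for dim ones, and it covers measurement on the array only. A second measure of array noise came from probes printed many times. The log2 ratio of a pair of spots of one such probe had an SD of 0.11 for signals of 64 or more and of 0.30 for dimmer spots, before scaling. A gene was counted as higher or lower when TAC over sham passed 2-fold and the probe was well above background on the brighter array.

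The genes of the family did not move as a block. Seen over the 8 measured genes, the median log2 difference between TAC and sham was 0.44 at 2 weeks and 0.50 at 8 weeks, against a median of 0.00 and -0.01 over all 15860 genes well above background on at least 1 array. The 2-week median was 0.17 with normexp background correction and 0.18 without Fmod. Aspn, Fmod, Lum and Bgn stood highest at 2 weeks and Bgn, Aspn and Lum at 8 weeks, Dcn and Podn differed little, and Ogn was lower after TAC at both times. Over 2-fold higher were 1 of 8 genes at 2 weeks, Aspn, and 2 of 8 at 8 weeks, Bgn and Aspn. The same rule called 2.42% of all genes higher at 2 weeks and 3.26% at 8 weeks. None of the 8 was over 2-fold lower, compared with 1.18% of all genes at 2 weeks and 2.06% at 8 weeks. With a lower bar of 1.5-fold, 4 of 8 were higher at 2 weeks (Bgn, Aspn, Fmod and Lum) and 3 of 8 at 8 weeks (Bgn, Aspn and Lum), where 6.77% and 7.23% of all genes passed. Counting only the sign, 7 of 8 were above 0 at each time. The exception was Ogn, and at 2 weeks Omd also fell below 0 when arrays were scaled by their median, by quantiles or after normexp background correction. Between the sham pools, 8 weeks minus 2 weeks, 6 of 8 were above 0, and between the TAC pools 6 of 8. The median over all genes was 0.03 and 0.02 there. The sign count after TAC was thus little above that between pools of the same operation.

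**Figure D1:**
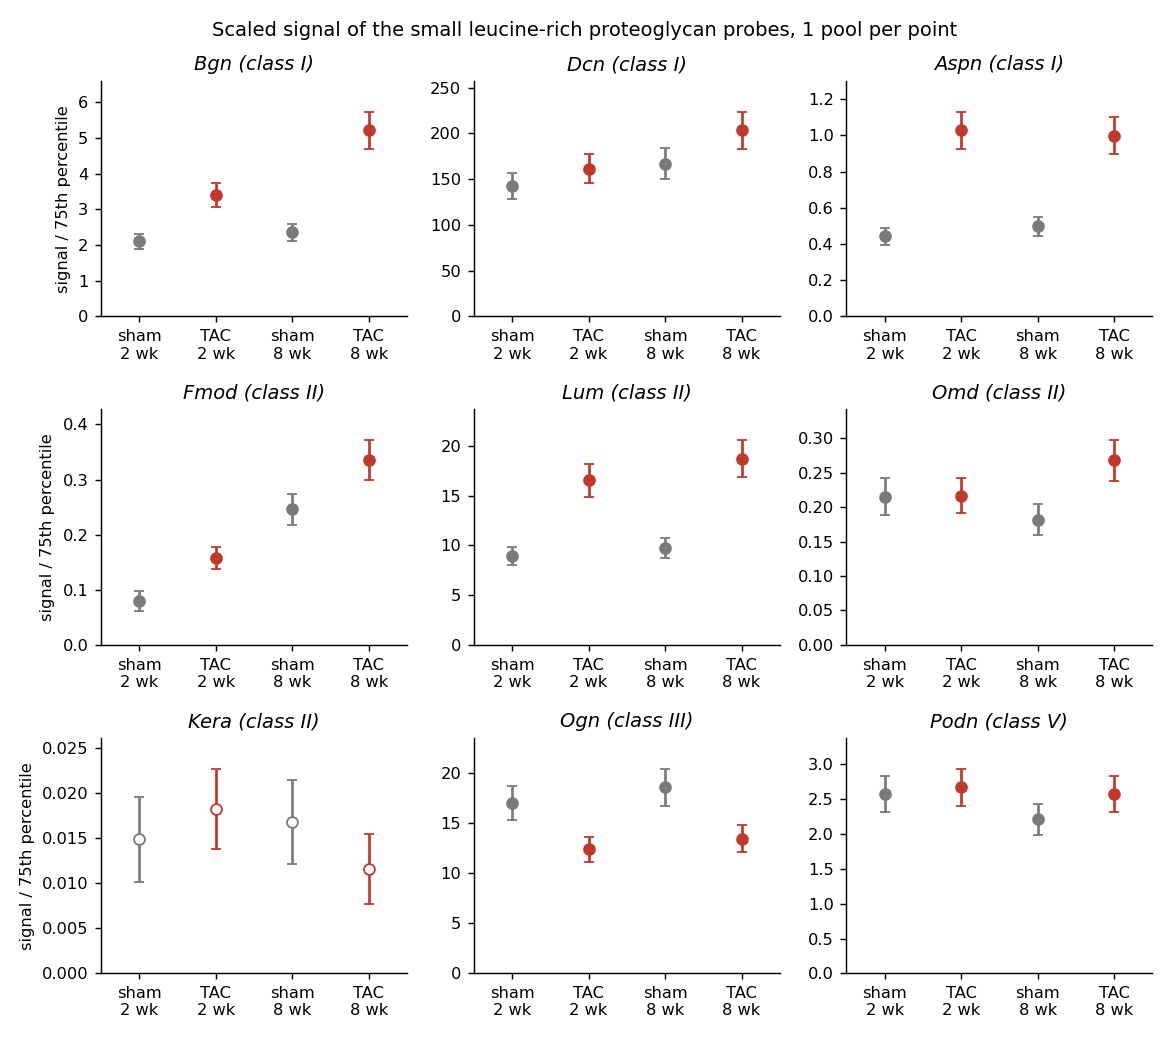
Scaled signal (spot intensity over the 75th percentile of its array, linear axis from 0) of the 9 SLRP probes in the sham pools (grey) and TAC pools (red) at 2 and 8 weeks. Each point is 1 pool on 1 array, bars are the scanner error of the spot, and open points mark signals not well above background. In the panels of Bgn, Aspn and Lum both TAC pools lie above both sham pools by more than the bars, and in that of Ogn both lie below. The Kera points are all open.

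Class I holds Bgn, Dcn and Aspn. Bgn encodes biglycan, a chondroitin or dermatan sulfate proteoglycan that binds collagen and TGF-β and that can act on Toll-like receptors when it is released from the matrix. Its scaled signal was 2.11 ± 0.211 in the sham pool and 3.40 ± 0.340 in the TAC pool at 2 weeks, and 2.36 ± 0.236 and 5.21 ± 0.521 at 8 weeks. Both TAC pools were thus brighter than both sham pools, and the 8-week TAC pool was the brightest. TAC over sham was 1.62-fold at 2 weeks (log2 0.69, SE 0.20 from the scanner error) and 2.21-fold at 8 weeks (log2 1.14, SE 0.20). The 8-week log2 difference was larger by 0.45, with an SE of 0.29. Among the TAC pools Bgn was 1.53-fold higher at 8 weeks than at 2 weeks, whereas the sham pools differed by 0.16 on the log2 scale.

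Dcn encodes decorin, the close relative of biglycan that restrains the sideways growth of collagen fibrils and holds TGF-β in the matrix. Its scaled signal was 143 ± 14.3 and 162 ± 16.2 in the sham and TAC pools at 2 weeks, and 167 ± 16.7 and 203 ± 20.3 at 8 weeks. The 2-week TAC pool lay below the 8-week sham pool, so sham and TAC overlapped. The log2 differences between TAC and sham, 0.18 at 2 weeks and 0.28 at 8 weeks, were of the size of the difference between the sham pools, 0.23, and of their SE of 0.20. On the same arrays the log2 change of Bgn exceeded that of Dcn by 0.51 at 2 weeks and by 0.86 at 8 weeks (SE 0.29 each).

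Aspn encodes asporin, which has a stretch of aspartate residues, lacks the sugar chain of its relatives and binds collagen and TGF-β. The scaled signals were 0.442 ± 0.0463 and 1.03 ± 0.103 at 2 weeks, and 0.497 ± 0.0512 and 0.999 ± 0.100 at 8 weeks, for sham and TAC in that order. The TAC pools were near each other, as were the sham pools, and the groups did not overlap. TAC over sham was 2.32-fold at the earlier time (log2 1.22, SE 0.21) and 2.01-fold at the later (log2 1.01, SE 0.21), so the 8-week value sat on the 2-fold line. Only 1.69% of the genes measured at 2 weeks and 3.20% of those at 8 weeks had a larger log2 difference. With normexp background correction, which adds a constant to all signals and so draws dim probes together, the differences of Aspn were 0.78 and 0.74 and passed 2-fold at neither time.

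Class II holds Fmod, Lum, Omd, Kera and Prelp, whose core proteins can carry keratan sulfate. Lum encodes lumican, which shares collagen binding sites with fibromodulin and is known for keeping the cornea clear. Its scaled signal was 8.93 ± 0.893 in sham and 16.6 ± 1.66 in TAC at 2 weeks, and 9.73 ± 0.973 and 18.7 ± 1.87 at 8 weeks. Both TAC pools lay well above both sham pools. TAC over sham was 1.86-fold at 2 weeks and 1.92-fold at 8 weeks, with log2 differences of 0.89 and 0.94 (SE 0.20 each), just under the 2-fold line at both times. At 8 weeks it passed that line, at 1.03 and 1.11, when arrays were scaled by their median or not scaled. The change between sham and TAC was nearly the same size at both times, since the log2 values differed by 0.05 with an SE of 0.29. The sham pools differed by 0.12.

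Fmod encodes fibromodulin, a regulator of collagen fibril assembly that is abundant in tendon and cartilage. It was dim, with scaled signals of 0.0800 ± 0.0177 and 0.158 ± 0.0201 at 2 weeks and 0.246 ± 0.0284 and 0.336 ± 0.0357 at 8 weeks for sham and TAC. The 2-week TAC pool was dimmer than the 8-week sham pool, so both 8-week pools were brighter than both 2-week pools. Time after surgery, age and differences between single pools cannot be told apart here. TAC over sham was 1.98-fold at 2 weeks (log2 0.98, SE 0.37) and 1.37-fold at 8 weeks (log2 0.45, SE 0.23). Between the sham pools it was 3.07-fold higher at 8 weeks (log2 1.62, SE 0.36), more than either TAC difference, and only 0.928% of the genes measured there had a larger one. Fmod was also the one family gene over 2-fold higher at 8 weeks among the sham pools, where 1.66% of all genes were called, and among the TAC pools, where 1.62% were called and Fmod was 2.12-fold higher. After normexp correction the sham difference was 0.37 and the TAC differences 0.19 and 0.23.

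Omd encodes osteomodulin, also called osteoadherin, a keratan sulfate proteoglycan of bone. Its scaled signal was 0.215 ± 0.0265 and 0.217 ± 0.0248 at 2 weeks, and 0.182 ± 0.0228 and 0.268 ± 0.0293 at 8 weeks for sham and TAC. The 2-week pools were alike, the 8-week sham pool was the dimmest and the 8-week TAC pool the brightest. The log2 difference was 0.01 (SE 0.24) at 2 weeks and 0.56 (SE 0.24) at 8 weeks, but the sham pools themselves differed by -0.24, and normexp correction left 0.24 at 8 weeks. Kera encodes keratocan, a proteoglycan of the cornea. Of its 10 spots on each array, 0 were well above background, and their intensities ran from 2.26 to 8.02, so no fold difference is given.

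Class III is represented by Ogn, which encodes osteoglycin, also known as mimecan, a core protein whose transcript level has been tied to the mass of the left ventricle. Its scaled signal was 17.0 ± 1.70 in sham and 12.4 ± 1.24 in TAC at 2 weeks, and 18.6 ± 1.86 and 13.4 ± 1.34 at 8 weeks. Both TAC pools were dimmer than both sham pools. Ogn was lower by 27.3% at 2 weeks and by 27.7% at 8 weeks, with log2 differences of -0.46 and -0.47 (SE 0.20 each), and it was below 0 at both times under each alternative scaling and background correction. At 2 weeks 5.09% and at 8 weeks 8.33% of the genes measured had a lower value. Class V is represented by Podn, which encodes podocan, a collagen-binding protein first found in the glomerulus of the kidney. Its scaled signals were 2.57 ± 0.258 and 2.67 ± 0.267 at 2 weeks and 2.21 ± 0.221 and 2.58 ± 0.258 at 8 weeks for sham and TAC. All 4 pools lay close together, and the log2 differences between TAC and sham were 0.05 and 0.22, beside one of -0.22 between the sham pools and an SE of 0.20. The 8-week value was 0.39 without normalization and 0.37 with normexp.

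**Figure D2:**
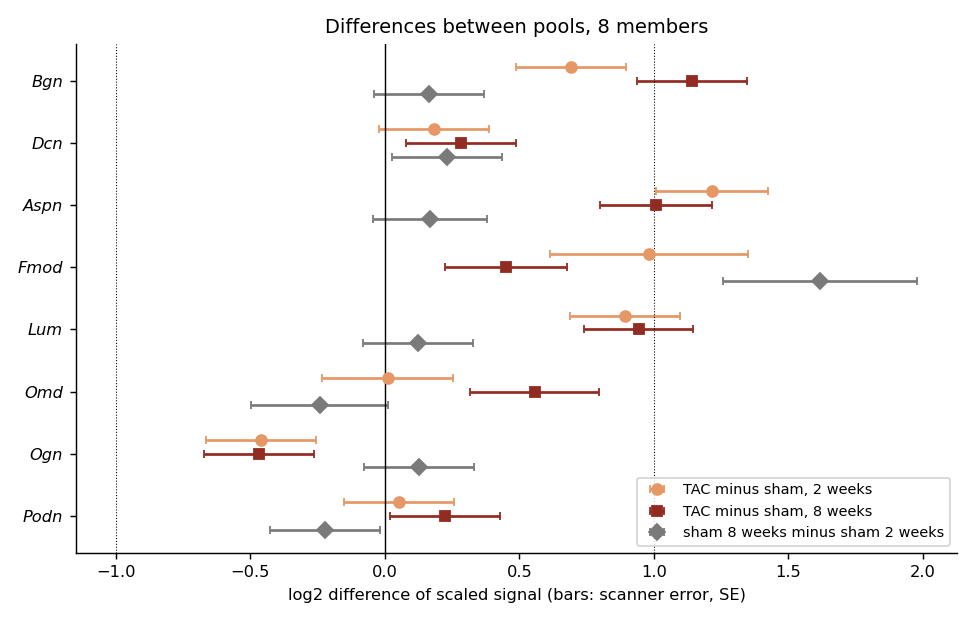
Log2 differences of scaled signal for the 8 measured SLRP genes between TAC and sham at 2 weeks (orange circles) and 8 weeks (dark red squares) and between the sham pools (grey diamonds, 8 weeks minus 2 weeks). Bars are SEs from the scanner error, and dotted lines mark 2-fold. Aspn, Lum and Bgn lie to the right of their own sham difference at both times, and so do Omd and Podn, whose sham differences are below 0. Ogn lies left of 0 after TAC, and the sham difference of Fmod, 1.62, is the widest.

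Most SLRP genes lie side by side in the genome. In the RefSeq gene order of GRCm38, Dcn, Lum, Kera and Epyc follow each other on chromosome 10, Ecm2, Aspn, Omd and Ogn on chromosome 13, and Prelp and Fmod adjoin on chromosome 1, while Bgn lies on chromosome X and Podn on chromosome 4. Neighbours did not share one difference. On chromosome 13 the log2 change of Aspn exceeded that of Ogn by 1.68 at 2 weeks and by 1.47 at 8 weeks (SE 0.29 each), and Omd lay between them. Ecm2, a related matrix gene next to Aspn, differed by 0.15 and 0.05. On chromosome 10 the log2 change of Lum exceeded that of Dcn by 0.71 and 0.66 (SE 0.29 each), and both Kera and Epyc were below background.

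**Figure D3:**
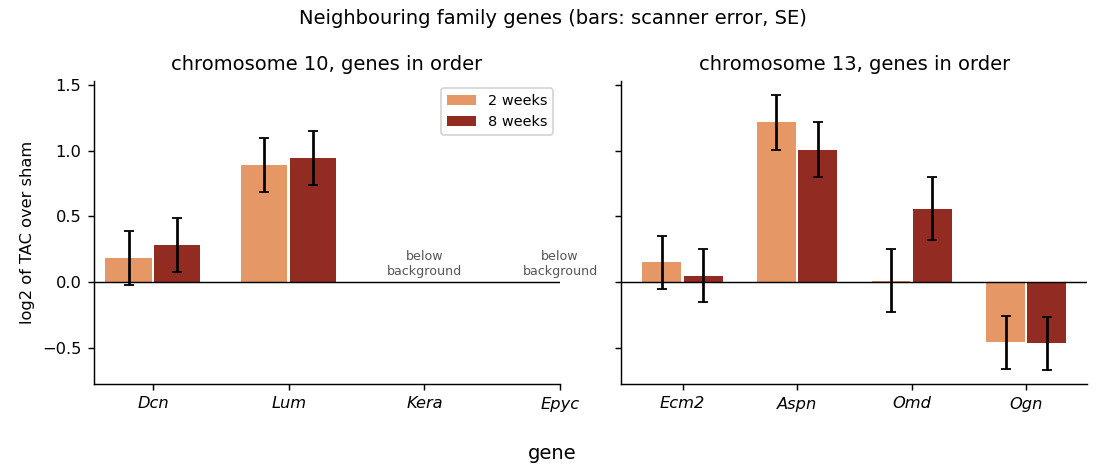
Log2 of TAC over sham at 2 weeks (orange) and 8 weeks (dark red) for neighbouring family genes, drawn in their order along chromosome 10 (left) and chromosome 13 (right), with bars for the SE from the scanner error. Aspn stands above 1 and Ogn near -0.46 on the same chromosome, and Lum stands above Dcn.

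The bases upstream of Aspn, Omd and Ogn are shown because these neighbours had unlike differences, and those of Bgn because it was the highest family gene at 8 weeks. Each run is the 250 bases before the annotated start in RefSeq on GRCm38.p6, read on the plus strand, which is the strand of all 4 genes. Capitals mark matches on either strand to the TATA box (TATAAA), the CCAAT box (spelled as its name), an AP-1 site (TGANTCA) or the CAGA box core (CAGACA). The CAGA box is one form of site bound by Smad proteins, and other forms were not searched.
Aspn (chr13:49544193-49544442): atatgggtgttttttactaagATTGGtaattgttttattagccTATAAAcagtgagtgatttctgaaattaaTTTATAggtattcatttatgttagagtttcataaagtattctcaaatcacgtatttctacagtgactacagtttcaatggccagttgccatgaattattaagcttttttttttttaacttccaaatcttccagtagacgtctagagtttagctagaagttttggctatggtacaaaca
Omd (chr13:49582212-49582461): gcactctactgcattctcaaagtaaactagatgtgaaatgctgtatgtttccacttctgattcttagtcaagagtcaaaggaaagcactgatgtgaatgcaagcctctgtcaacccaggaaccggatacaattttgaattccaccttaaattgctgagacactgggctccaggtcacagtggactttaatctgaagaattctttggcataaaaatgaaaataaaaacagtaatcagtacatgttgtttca
Ogn (chr13:49607765-49608014): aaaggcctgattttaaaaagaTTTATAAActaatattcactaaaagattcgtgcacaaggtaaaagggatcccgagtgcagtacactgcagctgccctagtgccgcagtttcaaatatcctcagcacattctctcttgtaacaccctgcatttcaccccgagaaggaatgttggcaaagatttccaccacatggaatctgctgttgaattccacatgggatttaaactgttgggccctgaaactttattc
Bgn (chrX:73483351-73483600): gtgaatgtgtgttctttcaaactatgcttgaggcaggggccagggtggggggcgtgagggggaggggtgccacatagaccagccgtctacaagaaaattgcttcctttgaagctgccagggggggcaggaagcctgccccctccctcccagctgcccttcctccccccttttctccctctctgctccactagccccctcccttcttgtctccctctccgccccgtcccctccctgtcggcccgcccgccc
The stretch of Aspn is 30.0% G and C, that of Omd 38.4%, that of Ogn 42.0% and that of Bgn 64.4%, and the median over all 32851 RefSeq promoter entries is 52.4%. Aspn has 2 TATA matches and 1 CCAAT match, and Ogn has 2 TATA matches that overlap each other. Neither Omd nor Bgn has any of the 4 motifs in this window. Over all entries 12.4% hold the TATA motif, 33.8% the CCAAT motif, 6.75% the AP-1 motif and 17.1% the CAGA box core. Entries were found for 8 of the 10 family genes, not for Dcn and Lum, and none of the 8 has the AP-1 motif or the CAGA box core in the window. These are matches of letters and say nothing about which factor binds.

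Among the genes that surround the family in the matrix, the collagens had larger median differences than the family itself. SLRPs bind type I, III, V and VI collagens and type XIV collagen sits on fibrils beside them. Of 11 collagen genes listed, 9 had a probe, and all 9 were above 0 at both times, with a median log2 difference of 0.89 at 2 weeks and 0.75 at 8 weeks, and 1 was over 2-fold higher at 2 weeks and 3 at 8 weeks. Col5a2, a chain of the collagen that starts fibrils, was 2.58-fold and 3.41-fold higher, and Col1a1 was 1.96-fold and 2.30-fold higher. Col1a2 was higher by 0.90 and 0.99 on the log2 scale. Col14a1 was 1.24-fold higher at 2 weeks and 2.66-fold at 8 weeks, but its sham pools differed by -0.92 on the log2 scale.

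The other SLRP genes lay mostly below 0. Of 8 such genes 7 were above background on at least 1 array, and their median log2 difference was -0.12 at 2 weeks and -0.43 at 8 weeks, with 2 and 1 of 7 above 0. The 8-week median is the value of Optc, which was not well above background in the 8-week TAC pool, and over the 5 genes above it on all arrays the medians were -0.12 and -0.33, with 1 of 5 above 0 at each time. Chadl, a chondroadherin relative, was lowest among those measured on both 8-week arrays, with -0.37 (SE 0.20) at 2 weeks and -0.83 (SE 0.20) at 8 weeks. Chad gave -0.10 and -0.62, Tsku -0.12 and -0.33, and Podnl1 -0.14 and -0.06. Nyx was the one called over 2-fold lower at 8 weeks, but its probe was well above background on 1 array, and only a bound of at least 1.44-fold lower can be given.

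Proteoglycans outside the family, 20 of 23 of which were measured, had medians of 0.27 at 2 weeks and 0.27 at 8 weeks. None was over 2-fold higher, and Spock2, a testican, was the one over 2-fold lower at 8 weeks (log2 -1.05, SE 0.32). Spock2 was dim, its 8-week sham pool was the brightest, and its sham pools differed by 0.63 on the log2 scale. Vcan, the large hyaluronan-binding proteoglycan versican, gave 0.41 and 0.67 and Gpc6, a glypican of the cell surface, 0.82 and 0.59. Prg4, the joint lubricin, gave 0.73 and 0.42, while its sham pools differed by 0.65.

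Genes that build the sugar chains differed little in the median. Of 22 genes for the linker and for chondroitin and dermatan sulfate, 20 were measured, with medians of 0.19 and 0.10, and 0 were over 2-fold higher. Chst13, a sulfotransferase, was the one over 2-fold lower at 2 weeks (log2 -1.45), where its 2-week sham pool stood apart from the other 3. Chpf and Chpf2, which polymerize chondroitin, gave 0.29 and 0.32 at 2 weeks and 0.54 and 0.49 at 8 weeks, and Dsel, an epimerase of dermatan sulfate, 0.43 and 0.48. B4galt7, which adds a sugar of the linker, gave 0.14 and -0.58, but its 8-week sham pool stood above the other 3 and the sham pools differed by 0.63. Of 7 genes for keratan sulfate 5 were measured, with medians of 0.18 and 0.31, and none passed 2-fold. Their largest 8-week differences were 0.39 for B4galt4, -0.37 for Chst2, 0.36 for B3gnt2 and 0.31 for B4galt1.

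Of the proteases that cut or process SLRPs, 9 of 11 were measured, with medians of 0.53 and 0.36, and 2 were over 2-fold higher at each time. Adamts4, an aggrecanase that also cuts SLRP core proteins, was not well above background in the 2-week sham pool, so the 2-week TAC pool was at least 3.65-fold higher, and the 8-week TAC pool was 2.63-fold higher than its sham pool. Mmp14, a membrane-bound metalloproteinase, was 2.02-fold higher at 2 weeks and 1.13-fold at 8 weeks. Its scaled signal was 0.428 and 0.421 in the TAC pools and 0.212 and 0.373 in the sham pools of 2 and 8 weeks, a sham difference of 0.81 on the log2 scale. Adamts1 was 1.45-fold and 2.11-fold higher, and Mmp3 gave 0.84 and 0.49 on the log2 scale, with a sham difference of 0.66. The sham pools of Adamts4 differed by 0.82. Htra1, a serine protease that degrades decorin and biglycan, was lower after TAC at both times, with log2 differences of -0.50 and -0.63 (SE 0.20 each). Bmp1, which trims the propeptides of biglycan and collagens, gave 0.31 and 0.36.

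Of growth factors and receptors that SLRP core proteins bind, 11 of 11 were measured, with medians of 0.34 and 0.56, and 9 of 11 were above 0 at each time. Tgfb2 was 1.55-fold higher at 2 weeks and 2.97-fold at 8 weeks, the only one past 2-fold. Tgfb3 gave 0.50 and 0.79, and Tgfb1 gave 0.15 and 0.07. Tlr4, one of the receptors of free biglycan, gave 0.22 and 0.92 and Tlr2 gave 0.46 and 0.62. Ccn4, a matricellular protein of the CCN family, gave 0.77 and 0.67.

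**Figure D4:**
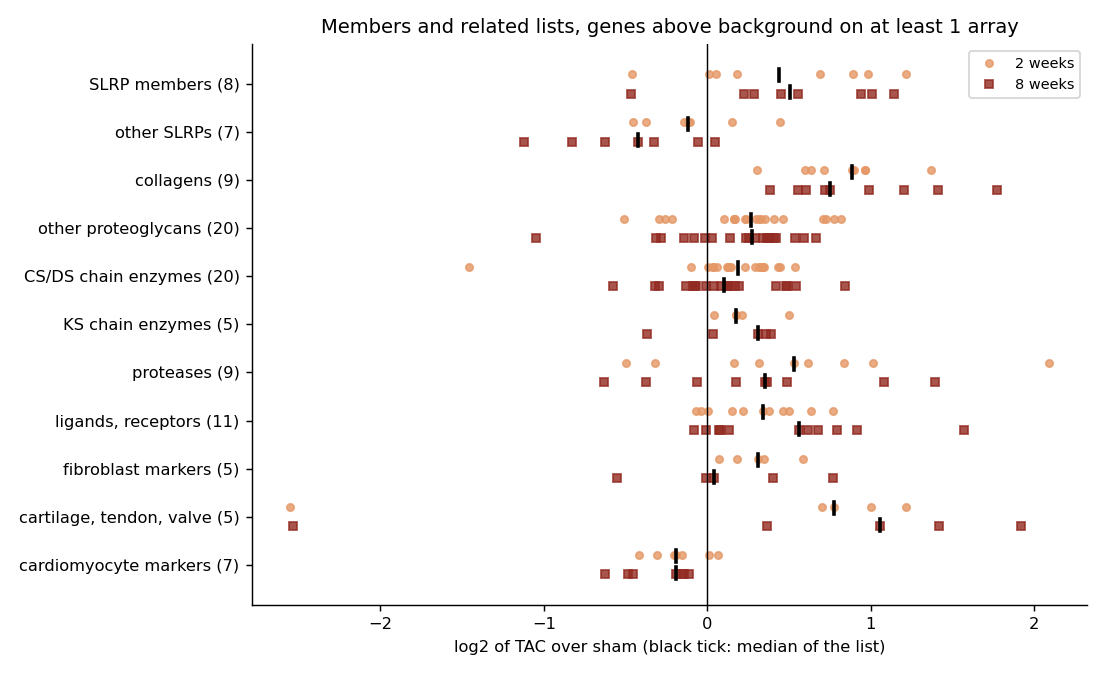
Log2 of TAC over sham at 2 weeks (orange circles) and 8 weeks (dark red squares) for each measured gene of the SLRP family and of related lists, with the number of genes in brackets and a black tick at each median. The collagens and the measured SLRP family genes lie mostly right of 0, the other SLRPs mostly left, and the point near -2.5 among the cartilage markers is Cnmd, which was well above background on 1 array only.

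Markers of cell types that make SLRPs were read beside these values. The 5 fibroblast markers outside the family were all well above background on all arrays, with medians of 0.31 and 0.04, and 0 passed 2-fold. Pcolce, the procollagen processing enhancer, gave 0.59 and 0.77, Pdgfra 0.31 and 0.40, and Tcf21 0.07 and -0.55. Their summed scaled signal was 49.8 in sham and 72.3 in TAC at 2 weeks and 53.3 and 84.5 at 8 weeks, most of it from Pcolce. Of 9 markers of cartilage, tendon and valve tissue, 5 were above background on at least 1 array, and Col2a1, Tnmd, Matn3 and Hapln1 were not on any. The summed signal of the 9 was 6.40 and 10.6 at 2 weeks and 6.92 and 16.3 at 8 weeks. Comp, a cartilage and tendon matrix protein, gave 2.00-fold at the earlier and 3.78-fold at the later time, and its sham pools differed by 0.92 in the same direction as those of Fmod. Sox9, a transcription factor of cartilage, gave 1.22 and 1.41, Scx, the tendon factor scleraxis, 0.70 and 1.06, and Acan 0.78 and 0.37. Cnmd went the other way. Its probe was well above background in the 8-week sham pool only, so only a bound of at least 1.25-fold lower at 8 weeks can be given. The part of such cells in the values of the SLRP genes was not tested.

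Markers of other cell types were read in the same way. The 7 cardiomyocyte markers had medians of -0.19 and -0.19, with Ryr2 at -0.63 and Pln at -0.49 at 8 weeks. Their summed signal was 7092 and 6638 at 2 weeks and 6771 and 5968 at 8 weeks for sham and TAC. The 4 macrophage markers had medians of 0.30 and 0.36 and the 4 smooth muscle markers 0.18 and 0.22. The 4 endothelial markers had a median of 0.25 at 2 weeks, and 2 of 4 were above 0 at 8 weeks. Of 3 mesothelial markers 2 were measured, of which Wt1 gave 0.40 and 0.41 and Msln 1.12 and -0.56. Of 3 adipocyte markers 1 was measured, Cfd, at -0.97 and 0.18. Among 4 atrial markers, Myl7 and Sln were at least 3.64-fold and 2.55-fold lower in the 8-week TAC pool than in the sham pool. Myl4 gave -0.52, whereas Nppa, which also marks pressure overload, was 6.28-fold higher there. Myl7 and Sln were dim and brightest in the 8-week sham pool, and their sham pools differed by 1.80 and 0.63 on the log2 scale. The 2-week sham pool of Myl7 was not well above background. Of the atrial markers, Myl7, Sln and Myl4 were thus lower in the 8-week TAC pool than in the sham pool. Only Nppa was higher, and it is not a marker of atrial tissue alone. The part of atrial tissue and of these other cell types in the values of the SLRP genes was not tested.

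The genes outside the family whose pattern over the 4 arrays lay nearest to the mean of the 8 measured SLRP genes were Syn1, Popdc3, Gpatch4, Lilrb4a and Prr7. The distance was the root of the summed squared differences between the log2 signals, each centred on its own mean, and it was between 0.02 and 0.04 for these 5 genes, against a median of 0.60 over 14291 genes. The mean pattern averages unlike genes. Within the family Aspn and Lum lay nearest to each other, at 0.25, and Fmod lay farthest from its nearest relative, at 1.10. Each of the 8 genes had a nearer gene outside the family, at 0.04 for Lum and 0.12 for Aspn. With 14291 genes to pick from outside and few inside, a nearer outside gene is likely for any gene. These distances therefore cannot show whether the family genes are alike, and small ones are likely among so many genes.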

How the data were processed

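Total RNA of 4 heart pools was labelled with Cy3 and hybridized to SurePrint G3 mouse arrays. The authors deposited the scanner output as an intensity per spot. The processed signal had been corrected for background and spatial trend, and was not normalized between arrays. The files name Agilent Feature Extraction 10.7.3.1, while the submitters' processing notes name version 9.1. GeneSpring GX11 was used in the study, and its normalization is not given in the sources used here. A deposited table of the series held the same intensities times a constant per array. No spot was saturated, and the number of arrays limits the precision. Between 54.7% and 58.5% of probes were well above background on an array.

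Outlier spots were left out, log2 signals were averaged over the spots sharing a probe, and the log2 75th percentile of the array was subtracted. Genes were named through the transcript given for a probe. Of 55681 probes, 29502 matched 1 gene symbol in the RefSeq and GENCODE tables, 0 several and 26179 none, which gave 21763 genes. The probe with the highest mean signal stood for a gene. SEs combine the scanner software's errors of both arrays. Where the dimmer array was not well above background, its signal was replaced by the dimmest one that was, if that was larger, and the fold is written as at least that value. A list was described over genes well above background on at least 1 array. No test was run, since each condition had 1 array and the 2 times were not taken as replicates. The text names all family genes, up to 4 genes per list with the largest 8-week difference among those measured on both 8-week arrays, the 5 genes of nearest pattern and the check genes, though not each gene this rule selects is given. Mmp14, Bmp1, Tgfb1, Tlr2, Nyx, Ecm2, Chst13, Dse, Cnmd, Myl7, Sln and Col2a1 with the other undetected markers were added after their values were seen. The family genes and all lists were chosen with earlier results of these data known. Alternatives were scaling by the median, by quantiles or not at all, normexp background correction with an offset of 50 (limma 3.58.1, R 4.3.3), the deposited table, outlier spots kept, the mean over probes of a gene, fold thresholds of 1.5 and 3, and other filters on dim probes. The counting was tested on simulated data. Python 3.11.15, pandas 2.3.3 and numpy 2.4.6 were used.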

Additional observations from a re-analysis of the deposited data

How the results depend on the processing

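Each condition had 1 array, so no replicate was left out, and no fit over both times, with or without time as a block, was run. Of 168 values of single family genes under alternatives, 161 moved by under 0.17, the SD between paired spots of one probe (log2 ratio, all signals), 7 moved further and none reversed a value larger than that SD. The 7 all came from normexp background correction and concern the probes of Aspn, Fmod and Omd. The signals of Aspn before scaling, from 91.3 to 248, were all in the class of 64 or more. The count of 161 is no measure of robustness. The mean over probes could move nothing, since each family gene had 1 probe. Scaling by the median, no scaling and the deposited table shift all genes of a comparison by nearly the same amount. Without normalization the 8-week values moved by just under 0.17, which is more than the SD of 0.11 for signals of 64 or more. The count over 2-fold higher at 2 weeks, 1 as reported, was 0 with normexp, 2 with the deposited table as given, 4 with a threshold of 1.5-fold and 0 with one of 3-fold. The count at 8 weeks, 2 as reported, was 1 with normexp, 1 with the deposited table, 0 at 3-fold, and 3 with scaling by the median, without normalization and at 1.5-fold. The median log2 difference at 2 weeks, 0.44 as reported, was 0.17 with normexp and 0.18 without Fmod, an alternative chosen after seeing the data. The median difference between the TAC pools, 0.24 as reported, was 0.51 without normalization between arrays, a setting that moved the median of all genes there to 0.29 and at 8 weeks to 0.16. At 8 weeks 61.3% of all genes called were higher as reported, 73.5% without normalization and 71.4% with normexp. Between the TAC pools this share was 48.6% as reported, 73.8% without normalization and 63.0% with normexp, and with normexp the sham pools gave 45.3% in place of 62.5%. The cause of these shifts was not tested. Under the alternatives the 8-week median, 0.50 as reported, ran from 0.36 with normexp to 0.67 without normalization, and the median between the sham pools, 0.14 as reported, from 0.11 to 0.24.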
